A study of Caenorhabditis elegans with 6 samples.

Results

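The transcriptome described here is that of wild-type N2 *Caenorhabditis elegans* fed *Escherichia coli* OP50 alone, the standard laboratory food of the worm. Its members were chosen by the diet in the sample labels, which gives 2 of the 6 libraries of the series, OP50 replicate 1 and OP50 replicate 2. Each was made from poly(A)-selected RNA of whole hermaphrodites, moved to the test plates at 3 days of age and kept there for 5 days, with about 200 worms collected per group. The other 4 libraries came from N2 worms of the same age and feeding time, given OP50 mixed with *Lactococcus lactis* NBRC 100923 (2 libraries) or NBRC 12007 (2 libraries), and were used only for the spread between libraries and for their range. The sources give more than one number for the first *Lactococcus* strain, and the number in the sample labels is kept.

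OP50 replicate 1 held 21691687 counts and OP50 replicate 2 held 17280251, against 14929196 to 19763455 in the other 4 libraries. Replicate 2 stood further from the rest of the series. For 7749 of 14899 genes with enough counts to be tested, OP50 replicate 2, and not replicate 1, had the highest or the lowest normalized count of the 6 libraries. The same was so of OP50 replicate 1 alone for 3881 genes, of both for 594 and of neither for 2675. Levels are therefore given for each library and not only as a mean. No source states whether the worms of each library were cultured separately, and the p-values given further on reflect how these particular libraries vary, and that variation may be technical.

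Levels are given in TPM, the counts of a gene divided by its exon length and scaled so that each library sums to the same total. This makes genes of different length comparable within a library. RNA of whole worms mixes all tissues, and fewer cells of a type and less RNA per cell cannot be told apart in it. Genes with near-identical copies, among them *vit-1* and *vit-2*, *vit-3*, *vit-4* and *vit-5*, the actins, the major sperm protein genes, histones and many collagens, have uncertain values, since how multiply mapped reads were counted, and with which strand setting, is not given in the sources used here.

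As background, the adult hermaphrodite is a small animal with a large gonad. Its intestine makes yolk proteins, the vitellogenins, which are secreted into the body cavity and taken up by growing oocytes through the receptor RME-2. Its hypodermis secretes a cuticle built of collagens, body wall muscle moves the animal and the pharynx pumps bacteria into the gut. Abundant transcripts of such an animal are known to include those of ribosomal proteins, yolk proteins, muscle proteins and gut enzymes.

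Of 46904 genes in the annotation, 20389 had at least 1 count in either OP50 library, 17761 had one in both, and 14479 had a mean of at least 1 TPM. Of those 14479 genes, 13679 were protein coding. At 1000 TPM or more there were 138 genes, all of them protein coding, and these held 36.1% of the TPM of replicate 1 and 33.4% of that of replicate 2. The 10 most abundant genes of each library held 6.95% in replicate 1 and 7.17% in replicate 2, and the 100 most abundant held 31.7% and 29.3%. The number of genes needed to reach 50% of the TPM was 353 in replicate 1 and 459 in replicate 2. Between the libraries, 7 of the 10 most abundant genes were shared, as were 91 of the 100 most abundant and 906 of the 1000 most abundant. Across 13937 genes with at least 10 counts in both libraries, Pearson's r of log2 TPM was 0.979 and Spearman's rho was 0.981, as a description over genes, which are not independent replicates.

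**Figure D1:**
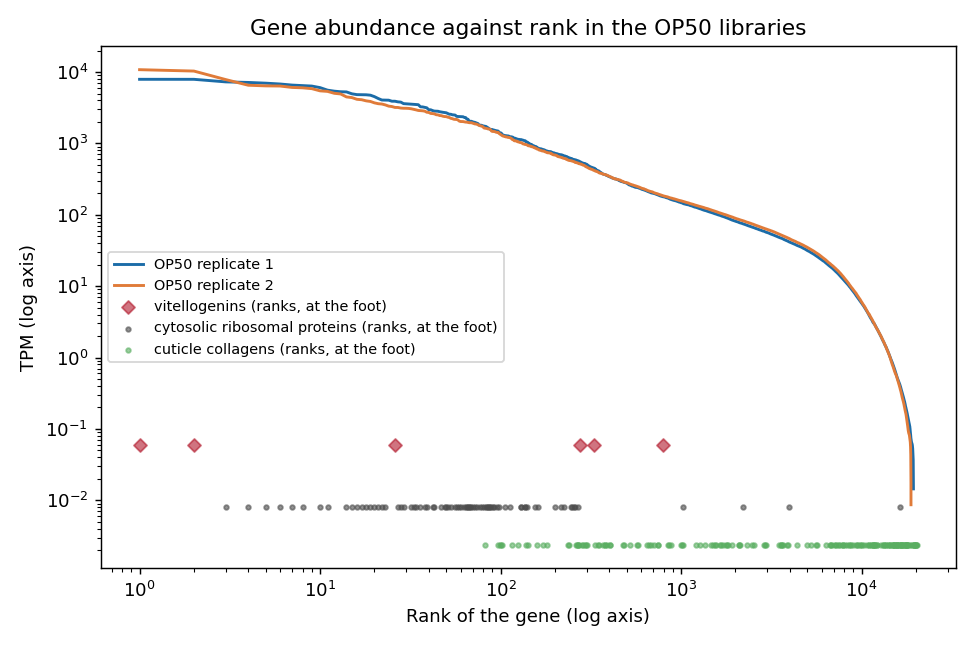
TPM of each gene (vertical axis, log scale) against its rank (horizontal axis, log scale) in OP50 replicate 1 and OP50 replicate 2, with the ranks of 3 gene families by mean TPM marked along the foot. The curves run close together, the ribosomal protein genes crowd at the top (61 of the first 100 ranks), and the 6 vitellogenin genes fall in a high and a lower set.

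By mean TPM the 2 most abundant transcripts encoded yolk proteins, although with an effective length (200 bases less) they ranked 4 and 7 and *rpl-25.2* came first. *vit-6*, which encodes the precursor of the yolk proteins YP115 and YP88 and lies on chromosome IV (8261134 to 8266462, build WBcel235), had 6989 TPM in replicate 1 and 10802 TPM in replicate 2. *vit-2*, on chromosome X (5101032 to 5106173), had 6054 TPM in replicate 1 and 10327 TPM in replicate 2. Both stood first in replicate 2, at ranks 1 and 2, and lower in replicate 1, at ranks 5 and 10. Replicate 1 was headed by *rpl-6*, a ribosomal protein gene of the large subunit on chromosome III, with 7917 TPM in replicate 1 and 6373 TPM in replicate 2. *rpl-25.2* followed it with 7914 TPM in replicate 1 and 7851 TPM in replicate 2, and varied least of the first 8.

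Of the 30 genes with the highest mean TPM, 21 encoded cytosolic ribosomal proteins and 3 vitellogenins. The other 6 were of mixed roles. *eef-1A.1*, the elongation factor that brings aminoacyl-tRNA to the ribosome, had 5578 TPM in replicate 1 and 5856 TPM in replicate 2. *sip-1*, a small heat shock protein gene known for its expression in oocytes and embryos, had 4816 TPM in replicate 1 and 6540 TPM in replicate 2. *far-2*, which encodes a fatty acid and retinol binding protein, had 4960 TPM in replicate 1 and 6089 TPM in replicate 2. The remaining 3 were *crt-1*, the calcium-binding chaperone calreticulin of the endoplasmic reticulum (3556 and 3703 TPM in replicates 1 and 2), *mlc-2*, a myosin regulatory light chain of muscle (4057 and 3109 TPM), and *F41F3.3* (3903 and 2834 TPM). *F41F3.3*, on chromosome V (4647665 to 4648241), has only a sequence name and no gene ontology term in the files. Among the first 100 genes, 7 had only a sequence name. Of these, *C17F4.7* (2048 and 3288 TPM in replicates 1 and 2) and *ZK813.7* (2046 and 2718 TPM), singled out after their values were seen, also had no such term.

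Transcripts of the translation machinery were the largest block. The 82 cytosolic ribosomal protein genes held 22.6% of the TPM in replicate 1 and 18.7% in replicate 2, and 61 of them stood among the first 100 genes. Their median level was 2164 TPM, and below *rpl-25.2* and *rpl-6* came *rpl-2* (7285 and 6404 TPM in replicates 1 and 2) and *rps-8* (7155 and 6016 TPM). The lowest member was *rpl-42*, with 5 counts in replicate 1 and 2 in replicate 2 (0.553 and 0.298 TPM). Among genes that share a name and number, 1 often stood well above the other. Whether the genes of such a pair encode the same protein was not checked. *rpl-24.1* had 47.5 times the TPM of *rpl-24.2* in replicate 1 and 33.4 times in replicate 2, *rpl-25.2* had 4.77 and 6.70 times that of *rpl-25.1*, and *eef-1A.1* had 6.38 and 7.70 times that of *eef-1A.2*. *rpl-11.2* and *rpl-11.1* were nearer each other, with a ratio of 3.36 in replicate 1 and 1.72 in replicate 2. The 6 elongation factor genes together held 1.25% and 1.21%, and the 71 mitochondrial ribosomal protein genes 0.449% and 0.438%, with a median of 55.1 TPM.

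**Figure D2:**
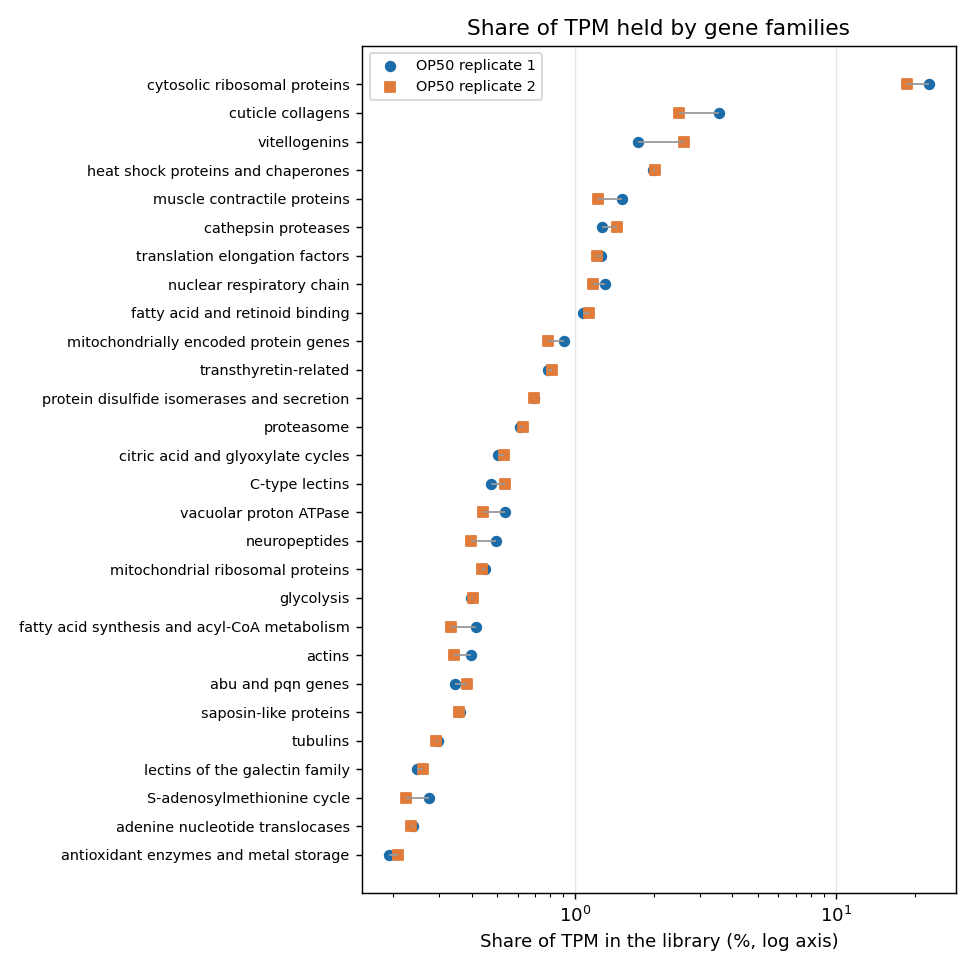
Share of the library's TPM (horizontal axis, percent, log scale) held by gene families, in OP50 replicate 1 (circles) and OP50 replicate 2 (squares), joined by a line. Ribosomal proteins held 22.6% and 18.7%, cuticle collagens 3.55% and 2.50%, and vitellogenins 1.74% and 2.61%. Other families ranged from nearly equal shares, as for heat shock proteins and chaperones (1.98% and 2.02%), to unequal ones, as for contractile proteins (1.52% and 1.22%).

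The vitellogenins came in a high and a lower set. All 6 genes held 1.74% of the TPM in replicate 1 and 2.61% in replicate 2. *vit-6*, *vit-2* and *vit-5* (2888 TPM in replicate 1 and 4154 TPM in replicate 2) made up nearly all of this, while *vit-3* had 596 and 463 TPM, *vit-4* 567 and 295 TPM and *vit-1* 269 and 97.7 TPM. The high set was lower in replicate 1 and the lower set higher in replicate 1. Since the transcripts are long, vitellogenins took 7.58% of the counts, as a mean of both libraries, when no length was divided out.

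Markers of oocytes and the eggshell were abundant, with a median of 401 TPM over 12 genes and 10 of them among the first 1000. *perm-2* (2010 and 2460 TPM in replicates 1 and 2) and *perm-4* (1323 and 1769 TPM) encode proteins of the vitelline layer, and *cpg-1* (1405 and 2024 TPM) and *cpg-2* (1131 and 1312 TPM) encode chondroitin proteoglycans of the eggshell. *rme-2*, the yolk receptor, had 306 and 373 TPM. Of the 12, 11 were lower in replicate 1 by edgeR's ratio and none passed the test. Germline markers had a median of 89.9 TPM over 7 genes, led by *pgl-1*, a P granule component, with 162 and 193 TPM, and *glh-1*, a germline helicase, with 135 and 159 TPM. *inx-8*, an innexin of the gonadal sheath, had 60.6 and 77.1 TPM.

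Sperm transcripts were scarce. The 35 major sperm protein genes, which encode the cytoskeletal protein of nematode sperm, together held 0.0208% of the TPM in replicate 1 and 0.00734% in replicate 2, and the highest mean level of any of them was 11.3 TPM. *msp-32*, *msp-52* and *msp-37* had no count in either library. The highest were *msp-31*, with a mean of 11.3 TPM, and *msp-59* (17.9 and 4.67 TPM in replicates 1 and 2), and *msp-81* had 141 counts in replicate 1 and 12 in replicate 2. *spe-9*, needed by sperm to fertilize, had 0.344 and 0.253 TPM. Early embryonic genes were low as well, with *ceh-51* at 7.46 and 8.03 TPM and *pes-10* at 6.62 and 7.62 TPM. *med-1*, which specifies the endoderm and mesoderm of the embryo, had no count, where 3 counts per library would correspond to 0.298 TPM in replicate 1 and 0.401 TPM in replicate 2. These limits cover counting error only.

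**Figure D3:**
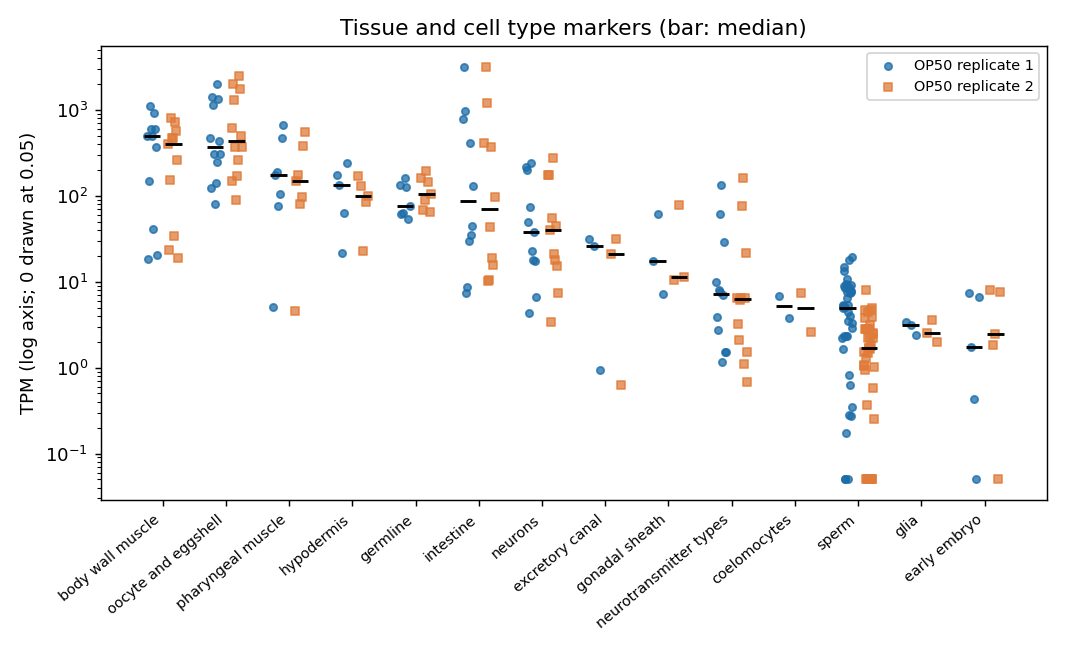
TPM (vertical axis, log scale, with 0 drawn at 0.05) of marker genes of 14 tissues and cell types in OP50 replicate 1 (circles) and OP50 replicate 2 (squares), with a bar at the median of each list. Body wall muscle and oocyte markers stood highest, and sperm, glia and early embryo markers lowest, with the sperm markers higher in replicate 1.

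Cuticle collagens were the next largest family by mean share, although the vitellogenins exceeded them in replicate 2. The 180 collagen genes held 3.55% of the TPM in replicate 1 and 2.50% in replicate 2, and 47 of them stood among the first 1000 genes. Their levels were spread over a wide range, with a median of 17.4 TPM and 133 genes at 1 TPM or more. *col-122* (1801 and 1494 TPM in replicates 1 and 2), *dpy-14* (840 and 1988 TPM), *sqt-3* (1113 and 1634 TPM) and *col-119* (1513 and 1228 TPM) were the highest. *col-35*, *rol-1*, *col-148* and *col-171* had no count in either library. Of the hypodermal markers, *col-19*, a collagen of the adult cuticle, had 175 and 170 TPM, while *rol-6* had 240 TPM in replicate 1 and 99.8 TPM in replicate 2. *lin-26*, a transcription factor of epithelial fate, had 63.3 and 84.1 TPM. Collagens of the basement membrane, which separate tissues inside the body, were led by *let-2* (301 and 298 TPM) and *emb-9* (296 and 280 TPM), both chains of type IV collagen, and *ost-1* (SPARC) had 995 and 794 TPM. The 12 molting and larval matrix genes had a median of 40.2 TPM.

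Muscle genes held 1.52% of the TPM in replicate 1 and 1.22% in replicate 2 over 29 contractile protein genes, of which 21 stood among the first 1000. The light chain gene *mlc-2* had 4.06 times the mean TPM of its paralog *mlc-1* (1031 and 736 TPM in replicates 1 and 2). Troponins followed, with *pat-10*, troponin C, at 1104 and 808 TPM and *unc-27*, troponin I, at 926 and 726 TPM. Of the body wall myosin heavy chains, *unc-54* had 592 and 562 TPM and *myo-3* had 147 and 153 TPM. In the pharynx, the myosin genes *myo-2* (190 and 174 TPM) and *myo-1* (175 and 148 TPM) stood close together, and *tnt-4*, a pharyngeal troponin T, had 669 and 559 TPM. *hlh-1*, the MyoD homolog, was at 18.6 and 23.6 TPM. The 5 actin genes held 0.397% and 0.341%, with *act-2* (1098 and 1267 TPM) and *act-4* (1241 and 1086 TPM) on top.

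The intestine was marked by its digestive enzymes more than by its regulators. *asp-1*, an aspartic protease of the gut, had 3158 and 3190 TPM in replicates 1 and 2, *asp-6* had 1948 and 3195 TPM, and *cpr-1*, a cathepsin B homolog, had 983 and 1199 TPM. The 28 cathepsin genes together held 1.26% and 1.45%, and *asp-19* and *asp-15* had no count. The GATA factors *elt-2* (7.37 and 10.2 TPM) and *elt-7* (a mean of 9.58 TPM), which set intestinal identity, were the lowest of the 10 intestinal markers. Lipid binding proteins held 1.07% and 1.13% over 17 genes, led by *far-2* and *far-1* (2628 and 1926 TPM), with *lbp-9* at 1242 and 1288 TPM. The transthyretin-related family, whose 59 members are secreted proteins of largely unknown role, held 0.783% and 0.816%, with *ttr-16* at 2840 and 2620 TPM and *ttr-15* at 1742 and 1796 TPM.

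Families of antimicrobial and surface proteins were each carried by few genes. Of 264 C-type lectin genes, 214 had a count and 100 reached 1 TPM. *clec-63* had 1696 and 2026 TPM in replicates 1 and 2 and *clec-87* had 850 and 954 TPM, out of a family total of 0.476% and 0.537%. Among 16 lysozyme genes, *ilys-5* had 720 and 650 TPM and *lys-7* had 241 and 418 TPM, while *ilys-1*, *lys-9* and *ilys-6* had no count. *spp-17*, a saposin-like gene, had 1037 and 811 TPM, and *spp-20* had no count. The antimicrobial peptide genes of the epidermis were low by comparison, with *nlp-24* at 142 and 86.8 TPM.

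Nervous system markers were detected throughout at moderate levels. All 11 neuronal markers passed 1 TPM, with a median of 41.1 TPM. *snb-1*, synaptobrevin, had 241 and 276 TPM in replicates 1 and 2, and the peptide processing enzymes *egl-21* (217 and 174 TPM) and *egl-3* (199 and 177 TPM) came next. Of the 12 genes that mark transmitter types, *tdc-1* (134 and 163 TPM) and *tbh-1* (61.6 and 75.5 TPM), which make tyramine and octopamine, were highest and are known to be expressed in the gonadal sheath as well as in neurons. The genes for GABA, acetylcholine and glutamate neurons were lower, with *unc-25* at 28.9 and 21.6 TPM, *unc-17* at 6.95 and 6.49 TPM and *eat-4* at 7.56 and 6.49 TPM. Neuropeptide genes held 0.495% and 0.399% over 147 genes, of which 123 reached 1 TPM. The 147 include *nlp* genes, such as *nlp-24*, that are also listed as epidermal antimicrobial peptides. That epidermal list held 0.0535% in replicate 1 and 0.0443% in replicate 2. *nlp-77* (699 and 460 TPM), *flp-14* (386 and 279 TPM), *flp-1* (328 and 262 TPM) and *nlp-40* (314 and 308 TPM) were the highest. *nlp-40* is known as a signal from the intestine that times defecation. Coelomocyte and glial markers lay at the low end, with *cup-4* at 6.73 and 7.37 TPM and *kcc-3* at 3.17 and 3.57 TPM.

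Genes of energy metabolism are encoded in both the nucleus and the mitochondrion. The 12 protein genes of the mitochondrial genome held 0.900% of the TPM in replicate 1 and 0.784% in replicate 2, with a median of 386 TPM. *ctc-3*, subunit III of cytochrome c oxidase, had 3248 and 2886 TPM, *atp-6* had 1393 and 1213 TPM and *ctb-1*, cytochrome b, had 1185 and 917 TPM. The 41 nuclear genes of the respiratory chain held a mean of 1.23%, with the ATP synthase beta subunit *atp-2* at 1522 and 1356 TPM. The mitochondrial carrier *ant-1.1*, which exchanges ADP and ATP, had 2383 and 2332 TPM, whereas its paralog *ant-1.3* had 2.08 and 1.07 TPM. In carbon metabolism the bifunctional glyoxylate cycle gene *icl-1* (905 and 1332 TPM) and the aldolase gene *aldo-2* (1051 and 1229 TPM) were the highest of their lists. *acdh-1*, an acyl-CoA dehydrogenase of the propionate shunt, had 1230 TPM in replicate 1 and 680 TPM in replicate 2, and *ahcy-1* of the S-adenosylmethionine cycle had 1278 and 1020 TPM.

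Protein folding genes were expressed at high levels, and their shares were close in the 2 libraries. The 59 heat shock and chaperone genes held 1.98% and 2.02%, and the 33 proteasome genes 0.611% and 0.627%, with a median of 157 TPM. *hsp-1*, a cytosolic HSP70, had 2689 and 2513 TPM in replicates 1 and 2, and *hsp-90* had 2307 TPM in each. *hsp-16.2*, a small heat shock protein gene that is known to be induced by stress, had 1238 and 854 TPM, at rank 133 by mean level. Antioxidant genes were lower, with the ferritin gene *ftn-2* at 516 and 634 TPM and the peroxiredoxin gene *prdx-2* at 614 and 534 TPM. Detoxification families were lower again. Glutathione S-transferases held 0.186% and 0.129%, led by *gst-1* (849 and 619 TPM). Cytochrome P450 genes held 0.0558% and 0.0706%, and UDP-glucuronosyltransferases 0.0450% and 0.0366%.

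Large regulatory and sensory families contributed little. Of 1629 serpentine chemoreceptor genes, 771 had a count, 858 had none and 26 reached 1 TPM, and the family held 0.0195% and 0.0182% of the TPM. *srr-4* was its highest member, with 16.7 and 12.5 TPM in replicates 1 and 2. Of 281 nuclear hormone receptor genes, 173 reached 1 TPM, led by *nhr-49*, a regulator of fat metabolism, with 94.8 and 113 TPM. Of 390 F-box genes, 220 reached 1 TPM, led by *fbxa-215* with a mean of 125 TPM. Histone genes were low in this poly(A)-selected RNA, with 23 of 72 at 0 counts and the linker histone gene *his-24* highest at 323 and 485 TPM.

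Genes for which the study gave PCR primers ranged widely in level. Its reference genes *act-1* (478 and 371 TPM in replicates 1 and 2), *tba-1* (626 and 647 TPM) and *cyc-1* (413 and 368 TPM) stood at ranks 335, 219 and 364 by mean level. The primers of *act-1*, on chromosome V (11079167 to 11082497), are shown as the designed sequences of a reference gene, and whether they separate *act-1* from the other actin genes was not tested:
act-1 forward: ctacgaacttcctgacggacaag
act-1 reverse: ccggcggactccatacc
*tnt-4* (669 and 559 TPM) was as abundant as these references. *unc-89* (20.5 and 19.1 TPM), *nas-7* (20.7 and 15.9 TPM) and *let-756* (33.8 and 29.6 TPM) were of middle abundance, whereas *daf-11* (1.67 and 1.61 TPM), *clhm-1* (5.34 and 5.93 TPM), *rbf-1* (5.12 and 4.98 TPM), *unc-105* (3.80 and 2.72 TPM) and *cyp-33E2* (3.69 and 3.27 TPM) were low. *daf-11* had 101 counts in replicate 1 and 72 in replicate 2. The genes mutated elsewhere in the study were detected, with *skn-1* at 85.2 and 98.9 TPM, *daf-16* at 30.3 and 37.5 TPM and *pmk-1* at 24.9 and 26.6 TPM. None of these 15 genes passed the test between the OP50 libraries that follows.

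The OP50 libraries differed from each other in a set of genes in which cuticle collagens were prominent. By the quasi-likelihood test of edgeR, with TMM scaling, 306 of 14899 genes were higher in replicate 1 (2.05%) and 86 were lower (0.577%). The threshold was a p of 0.05 after Benjamini-Hochberg adjustment, and 2284 genes had an unadjusted p under 0.05. The test gives each OP50 library its own coefficient and takes the spread from the 4 *Lactococcus*-fed libraries, with 2 residual degrees of freedom. It compares 2 libraries, not conditions, and assumes that a lone OP50 library varies like the other pairs. The counts changed with the libraries that gave the spread. With any of them left out, its partner stood alone in its group and only the other pair gave the spread. Without OP50+LL 100923 replicate 1 the test called 1468 genes higher and 598 lower, without OP50+LL 100923 replicate 2 it called 1374 and 577, and without OP50+LL 12007 replicate 1 it called 429 and 130. With no filter on low counts it called 802 and 262, and these included all 392 genes called with the filter. Of these 1064 calls, 1056 fell on genes that were also tested with the filter, so the added calls were mostly not genes let in by dropping it.

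A log2 ratio is given below as replicate 1 over replicate 2. A standard error, where given, was derived from the test as the absolute ratio divided by the square root of its F value. The median over all genes tested was 0.01 by edgeR and -0.14 on the TPM scale, so a family can hold an unchanged share of TPM and still have a ratio above 0. Of the genes tested, 79.6% lay within 1.5-fold by edgeR's ratio and 8.68% were beyond 2-fold. Genes between 30 and 100 TPM had a median absolute ratio of 0.14, where counting error alone would give 0.04. Above 1000 TPM the values were 0.40 and 0.01, and the median of the signed ratio was 0.38 over 138 genes. These 138 include 61 cytosolic ribosomal protein genes of the first 100 ranks, a family with a median ratio of 0.42. The values by level were not recomputed without that family. Ratios also shifted with gene length, from a median of 0.14 for 1085 genes under 500 bases to -0.08 for 359 genes of 5000 bases or more. With collagens and ribosomal proteins left out those medians were 0.13 and -0.08. The part of transcript length in the differences below was not tested.

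**Figure D4:**
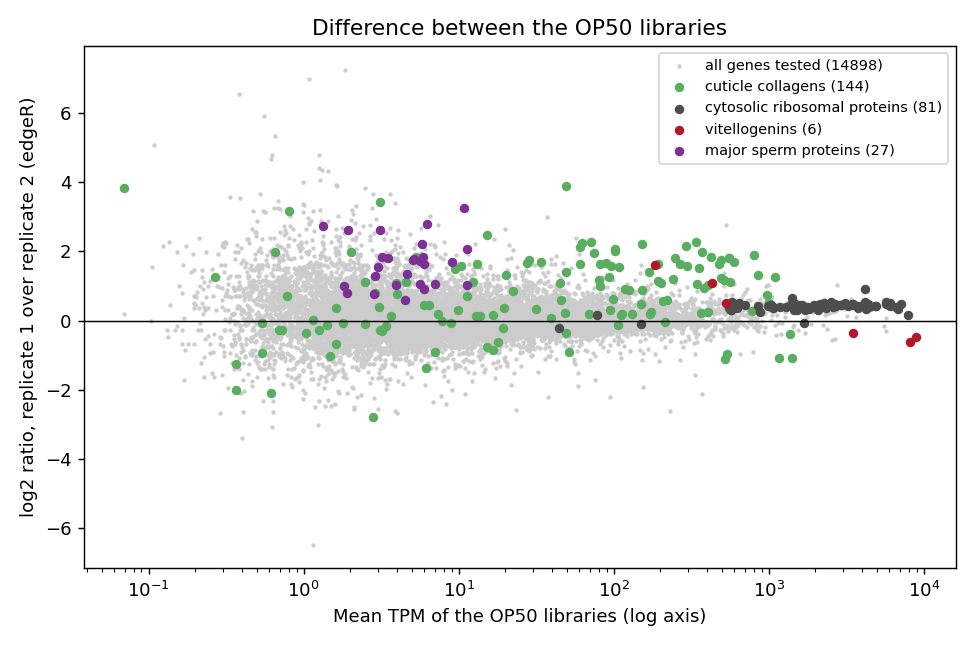
log2 ratio of OP50 replicate 1 over OP50 replicate 2 by edgeR (vertical axis) against the mean TPM of the OP50 libraries (horizontal axis, log scale) for the genes tested, with 4 families coloured. Collagens spread mostly above 0, ribosomal proteins lie in a narrow band near 0.42, the 3 abundant vitellogenins lie below 0, and all 27 major sperm protein genes lie above 0. *rol-1*, with no count in either library, is not drawn.

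Cuticle collagens were higher in replicate 1. Of 145 tested, 60 were higher (41.4%, against 2.05% of all genes) and 4 were lower (2.76%, against 0.577%), and the median log2 ratio was 0.70. They made up 19.6% of all genes higher in replicate 1, with ratios between 0.58 and 3.90. For 46 of the 60, OP50 replicate 2 alone lay outside the other 5 libraries, and for 13 more both OP50 libraries were at the ends. Over all 306 genes higher in replicate 1 these numbers were 225 and 66. The 4 lower in replicate 1 were *dpy-14* (log2 ratio -1.09), *col-74* (-0.96), *col-165* (-1.12) and *col-36* (-2.80). With DESeq2 *dpy-14* did not pass (adjusted p = 0.0864) and *col-36* was given no adjusted p. *col-149*, on chromosome V (10291697 to 10292869), had the highest ratio of the genes named, with 1527 counts (92.2 TPM) in replicate 1 and 84 counts (6.84 TPM) in replicate 2 and a log2 ratio of 3.90, with a standard error of 0.19 and an adjusted p of 3.84e-05 by edgeR. The other 4 libraries ranged from 369.5 to 2767 normalized counts of *col-149*, against 1271 in OP50 replicate 1 and 84.9 in OP50 replicate 2. *col-90*, on chromosome III, had 554.5 TPM in replicate 1 and 128 TPM in replicate 2, and *col-161*, *col-162*, *col-154* and *col-170* had log2 ratios of 2.23, 2.24, 2.29 and 2.48. The hypodermal marker *rol-6* was higher in replicate 1 as well (log2 ratio 1.41, adjusted p = 0.000771 from edgeR), while *col-19*, *dpy-7*, *elt-3* and *lin-26* had ratios of 0.20, 0.19, 0.10 and -0.26 and did not pass.

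Outside the collagens, the largest ratios above 0 fell on genes of several roles. *folt-2*, a folate transporter gene on chromosome V, had 65.5 TPM in replicate 1 and 9.07 TPM in replicate 2 (log2 ratio 3.0, with a standard error of 0.18 and an adjusted p of 0.000156 by edgeR). *F46F2.3*, on chromosome X (15259579 to 15260290), had 908 TPM in replicate 1 and 149 TPM in replicate 2. Its normalized counts were 7502 and 1108 in the OP50 libraries and 1976 to 15440 in the others, so its level varied widely across the series. *spp-23*, a saposin-like gene, had 94.4 TPM in replicate 1 and 19.9 TPM in replicate 2, and *pho-13*, an acid phosphatase gene, had 10.6 and 2.50 TPM. *F46F2.3*, *spp-23* and *pho-13* were lowest in OP50 replicate 2, and *folt-2* was lowest there and highest in OP50 replicate 1.

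The intestinal markers split. Of the 10, *pho-1*, an intestinal acid phosphatase (log2 ratio 1.63, adjusted p = 0.00135 from edgeR), *act-5*, the actin of the microvilli (1.07, adjusted p = 0.0119), and *pept-1*, the peptide transporter (1.02, adjusted p = 0.00659), were higher in replicate 1, which is 30% against 2.05% of all genes. The other 7 had ratios between -0.40 (*ges-1*) and 0.60 (*vha-6*, a vacuolar ATPase subunit of the gut, with an adjusted p of 0.0587 by edgeR) and did not pass. Of 21 cathepsin genes tested, *cpr-5* alone was called higher (1.61), which is 4.76%, and their median was 0.01. Also higher were 7 of 44 glutathione S-transferases, whose median was 0.63, *gst-5* (1.18) among them. Of 61 UDP-glucuronosyltransferases 5 were higher, with *ugt-44* (0.73) among them, and 1 was lower, with a median of 0.54. In the S-adenosylmethionine cycle 3 of 10 genes were higher in replicate 1, namely *sams-1*, S-adenosylmethionine synthetase (0.89), *pmt-2*, a phosphoethanolamine methyltransferase (0.78), and *metr-1*, methionine synthase (0.61). Of 15 genes of fatty acid synthesis and acyl-CoA metabolism 4 were higher, among them *acdh-1* (1.01) and *ech-6*, an enoyl-CoA hydratase (1.06), and *acs-2*, an acyl-CoA synthetase, was lower (-0.85). The light chain *mlc-1* (0.64) was higher as well, 1 of 4 such contractile genes of 29 (13.8%, median 0.41), with *unc-87*, *mup-2* and *dim-1* (0.66, 0.63 and 0.64). For 27 of those 29 genes OP50 replicate 2 alone lay outside the other 5 libraries, as it did for 7749 of all 14899 genes tested. These 4 contractile genes, *metr-1* and *ugt-44* no longer passed when either OP50+LL 12007 library was left out, at ratios of 0.61 to 0.73.

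Genes with the largest ratios below 0 were of several roles. *scl-2*, which encodes a secreted protein of the SCP family and lies on chromosome IV (13057678 to 13059085), had 58.6 TPM in replicate 1 and 403 TPM in replicate 2 (log2 ratio -2.63 with a standard error of 0.29, and an adjusted p of 0.00155 by edgeR). The cytochrome P450 genes *cyp-37B1* (6.11 TPM in replicate 1 and 40.9 TPM in replicate 2, log2 ratio -2.59) and *cyp-32B1* (3.63 and 13.6 TPM, -1.75) were lower, and with *cyp-37A1* (-1.03) they made 3 of 63 P450 genes tested (4.76%, against 0.577% of all genes), while *cyp-29A4* was higher. *mtl-1*, a metallothionein gene, had 22.9 TPM in replicate 1 and 95.2 TPM in replicate 2 (log2 ratio -1.90). The flavin monooxygenase gene *fmo-2* (2.53 and 12.9 TPM, -2.20) and the lipase gene *fil-1* (3.29 and 14.8 TPM, -2.02), named for its induction by fasting, were also lower in replicate 1. *F53A9.8*, *T26H5.9*, *T23E7.6* and *C50F7.5* completed the 10, with ratios of -2.14, -2.21, -2.22 and -1.94. For *mtl-1* and *fmo-2*, OP50 replicate 1 was below all other libraries, whereas *scl-2*, *cyp-37B1*, *fil-1* and *C50F7.5* were highest in OP50 replicate 2.

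**Figure D5:**
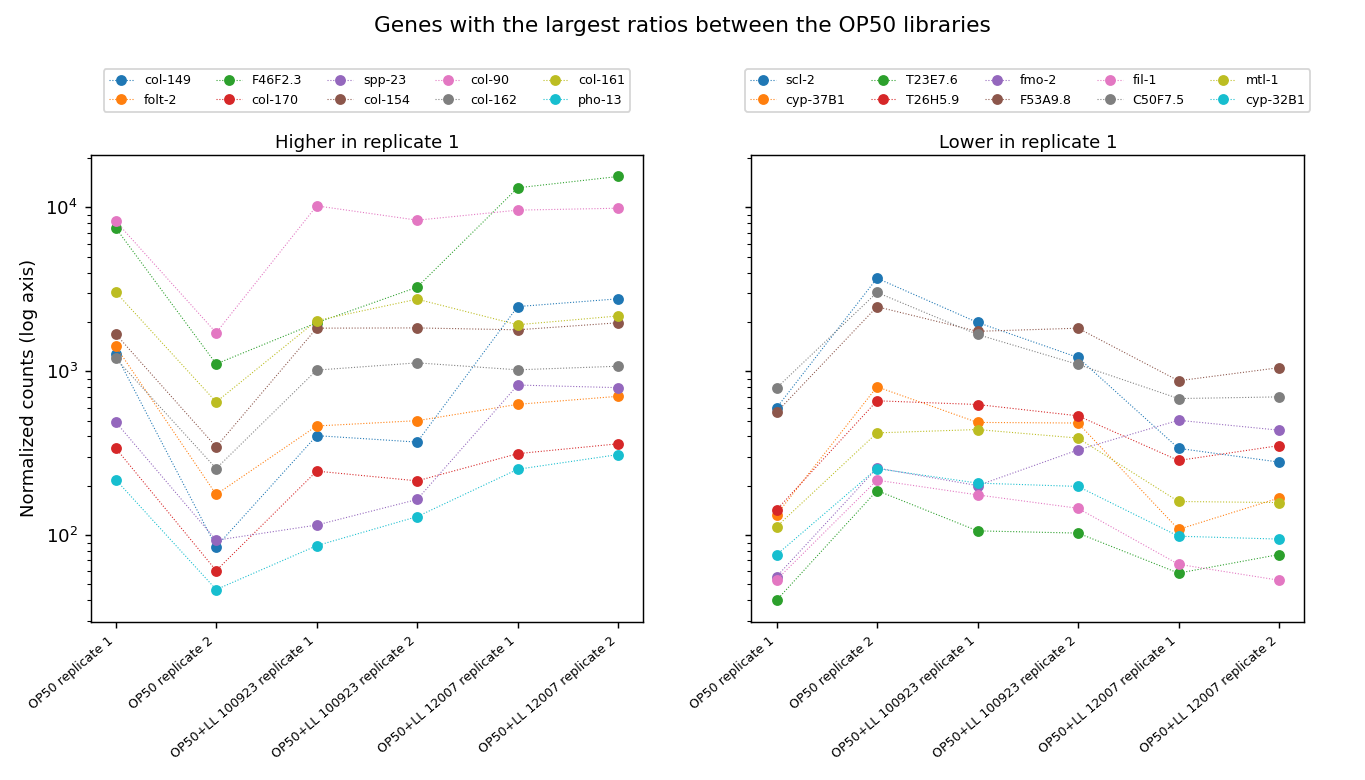
Normalized counts (vertical axis, log scale) of the 10 genes with the largest log2 ratio in each direction in all 6 libraries, the OP50 libraries at the left. On the left panel each gene is lowest in OP50 replicate 2, with *col-149* at 84.9 against 1271 in OP50 replicate 1, and on the right panel each gene is higher in OP50 replicate 2 than in OP50 replicate 1.

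In the ribosomal protein family the ratios lay mostly above 0 but few passed the test. Of 81 ribosomal protein genes tested, 78 had a ratio above 0, with a median of 0.42, but 1 passed (1.23%, below the 2.05% of all genes). It was *rpl-11.2*, with 5273 TPM in replicate 1 and 3132 TPM in replicate 2 (log2 ratio 0.90 with a standard error of 0.15, and an adjusted p of 0.0126 by edgeR). Of the vitellogenins, *vit-1* (1.61, adjusted p = 0.0182 from edgeR) and *vit-4* (1.09, adjusted p = 0.00659) were higher in replicate 1, which is 33.3% of the 6 tested against 2.05% of all genes, although *vit-1* did not pass with DESeq2 (1.58), and *vit-6* and *vit-2* had ratios of -0.48 and -0.62 and did not pass (adjusted p = 0.218 and 0.156). *vit-1* and *vit-4* were highest in OP50 replicate 1 of the 6 libraries, and *vit-6* and *vit-2* in OP50 replicate 2. All 27 major sperm protein genes tested had a ratio above 0, with a median of 1.69, and none passed. The largest ratio was that of *msp-81* (3.26 with a standard error of 0.80, and an adjusted p of 0.0722 by edgeR). For 21 of these 27 genes neither OP50 library had the highest or the lowest normalized count of the 6 libraries. Of 3 gonadal sheath markers *ceh-18* was higher in replicate 1 (0.91, adjusted p = 0.0475 from edgeR), which is 33.3% against 2.05% of all genes. The other 2 had ratios below 0, down to -0.49, and the *ceh-18* call was lost with another scaling. Neurons had no called marker among 11 (median 0.32), and of 118 neuropeptide genes tested 6 were higher in replicate 1, among them *nlp-77* (0.75) and *daf-28*, an insulin-like peptide gene (1.64). The 6 include *nlp-24* (0.86) and *nlp-33*, which are also on the list of epidermal antimicrobial peptides. No member of the germline, oocyte, pharyngeal muscle, proteasome, glycolysis, vacuolar ATPase or mitochondrially encoded lists passed the test, with medians between -0.11 and 0.46.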

How the data were processed

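Poly(A)-selected RNA of whole worms was sequenced in 6 libraries. The authors deposited counts of reads per gene with gene lengths, made per the labels by trimming (Trim Galore 0.6.5, Trimmomatic 0.39, cutadapt 2.7), alignment with STAR 2.7.2b and counting with featureCounts 1.6.4 on build WBcel235 (ce11). The methods of the paper name other versions of these tools. Neither the handling of multiply mapped reads nor the strand setting is stated in the sources. The deposited length equalled the merged exon length of all 46904 genes in the files, and all rows named a gene. 11 gene names that a spreadsheet had turned into dates were restored from their identifiers, and biotypes came from Ensembl 115.

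Counts were divided by length and scaled to TPM in each OP50 library. The OP50 libraries were compared with edgeR 4.0.16 in R 4.3.3 (filterByExpr, TMM, robust quasi-likelihood F test, Benjamini-Hochberg adjustment over 14899 genes, threshold 0.05). Each OP50 library had its own coefficient, and the 4 *Lactococcus*-fed libraries gave the spread. The standard error of a log2 ratio was its absolute value divided by the square root of F, so it rests on that spread. Alternatives were DESeq2 1.42.0 on the same design, other scalings, no filter, a fit that was not robust, an effective length (200 bases less, at least 50), counts scaled to the library total with no length, other denominators and detection limits, and each library left out. Depth was 17280251 to 21691687 counts in the OP50 libraries, so a limit of 3 counts corresponds to a fraction of 1 TPM for most genes, and it covers counting error only.

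Genes named were the 30 highest by mean TPM, up to 4 of the highest members and members with no count in each gene list, the 10 largest ratios in each direction among called genes with at least 100 normalized counts, and the genes for which the study gave PCR primers or that it mutated. Other members named were picked after their values were seen. The members and gene lists were chosen with earlier results of these data known. Lists were described by counts and medians, with no set test. Python 3.11.15, pandas 2.3.3 and matplotlib 3.10.9 were used.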

Additional observations from a re-analysis of the deposited data

How the results depend on the processing

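The direction of 54 called genes, those of the naming rule and the others named in the text, held under all 10 alternatives of the test. That outcome was fixed in advance and is no check. Each OP50 library has its own coefficient, so a ratio comes from the OP50 counts and the scaling. The alternatives shifted the median ratio of all genes by at most 0.0476. In 513 of 538 pairs of gene and alternative the gene also passed the threshold, 42 genes did so wherever an adjusted p was given, and DESeq2 gave none for *col-36* and *cyp-29A4*. Calls were lost with another scaling for *ceh-18*, *cyp-29A4*, *daf-28*, *dim-1*, *mup-2*, *nlp-24* and *ugt-44*, with DESeq2 for *daf-28*, *dpy-14*, *ugt-44* and *vit-1*, and without either OP50+LL 12007 library for *dim-1*, *metr-1*, *mlc-1*, *mup-2*, *ugt-44* and *unc-87*. The number of genes called depended on the setting. With a *Lactococcus*-fed library left out, only the other pair gave the spread. Against 306 higher and 86 lower in replicate 1, no filter on low counts gave 802 and 262, and leaving out each *Lactococcus*-fed library gave 349 to 1468 higher and 103 to 598 lower, the cause of which was not tested. Other scalings, a fit that was not robust, scaling without mitochondrial genes and ribosomal RNA, and DESeq2 gave 255 to 306 and 85 to 107, and DESeq2 shared 339 of the 392 calls of edgeR, with 3178 adjusted p-values left as NA. The share of the 10 most abundant genes was 10.2% of the counts when no length was divided out, and that of the 100 most abundant 25.5%, or 33.6% with an effective length. Ribosomal proteins held 9.55% of the counts and 24.3% with an effective length, and vitellogenins 7.58%, cuticle collagens 2.24% and contractile proteins 1.72% of the counts. Of the 30 most abundant genes, 19 remained with no division by length, 25 with an effective length, 27 without OP50 replicate 1 and 28 without OP50 replicate 2. Low members are limited by depth. No paired analysis was possible because the replicate number is itself the contrast between the OP50 libraries.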

Other observations

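Transcript levels were unevenly spread over the chromosomes. Chromosome I held 20.9% and 20.6% of the TPM in OP50 replicates 1 and 2, from 14.4% of the protein-coding genes, and chromosome III held 19.8% in each. Chromosome V has the most protein-coding genes, 4992, of which 53.4% reached 1 TPM, against 80.6% on chromosome III and 76.5% on the X chromosome. The median level of a protein-coding gene was 18.3 TPM on chromosome III, 5.78 TPM on the X chromosome and 1.42 TPM on chromosome V.

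Little of the signal came from outside protein-coding genes, which held 99.0% and 98.9% of the TPM in OP50 replicates 1 and 2. Pseudogenes held 0.381% and 0.430%, with 1096 of 2117 detected by at least 1 count. Genes annotated as ncRNA held 0.307% and 0.380%, and 725 of 7759 had a count. Of 15363 genes of piRNAs, the short RNAs that guide Piwi proteins in the germline, 151 had a count. They took 0.00087% and 0.00091% of the counts, and all 151 reached a mean of 1 TPM, since division by a very short length raises TPM. Whether these reads came from piRNAs or from longer transcripts over the same places was not tested. The RNA was poly(A)-selected, so these shares do not measure RNAs without a poly(A) tail.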
